A study of Mus musculus with 8 samples.

Results

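Cholesterol synthesis and its control by the transcription factor SREBP2 were followed gene by gene in mature oligodendrocytes. The members were chosen as a list of 29 genes of the 18833 in the deposited matrix, and all 29 were present. They comprise 9 genes of the mevalonate and prenyl steps, 3 of squalene formation and closure, 9 of the sterol ring steps, 7 of SREBP control and 1 sterol carrier. The list does not hold every enzyme of the pathway. The study profiled 8 single-cell libraries from 4 female mice. The hippocampus and the rest of the left hemisphere, labelled cortex, were taken from WT mice 1 and 4 and from KO mice 3 and 6, which made 2 libraries per tissue and genotype. KO mice are *Fire* Δ/Δ: they lack an enhancer within an intron of *Csf1r*, the receptor gene on which microglia depend, and have no microglia, while other brain macrophages remain. The deletion is in every cell of the animal, so it is not limited to microglia. WT mice are *Fire* +/+, and both genotypes were on the same mixed background. Mice 1 and 3 were labelled as 1 month and 18 days old and mice 4 and 6 as 1 month and 16 days old. No mouse was treated, and actinomycin D was present while the tissue was dissociated in all 8.

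Cholesterol is a main component of myelin, and the brain makes its own because lipoproteins of the blood hardly enter it. Acetyl-CoA is built into mevalonate and then into isoprene units, which give prenyl groups for proteins or are joined into squalene; squalene is closed into the first sterol, and the ring is then trimmed to cholesterol. When sterols in the endoplasmic reticulum are scarce, SCAP carries SREBP2 to the Golgi, where the proteases encoded by *Mbtps1* and *Mbtps2* release the part that enters the nucleus and activates these genes. INSIG proteins hold SCAP back when sterols are plentiful. These steps act on proteins, which were not measured here.

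SREBP2 binds sterol response elements near the start of its target genes, often beside the CCAAT box of the factor NF-Y and the GC box of SP1. RefSeq promoters (GRCm38.p6) were at hand for 24 of the 29 genes. The 250 bases before the start of transcription are printed for *Hmgcs1*, *Mvd*, *Ebp* and *Srebf1*, none of which overlaps an annotated exon in this window, because the first 3 were higher in one oligodendrocyte cluster than in another in all 8 libraries and *Srebf1* was lower in all 8. For *Srebf1* the most upstream of 3 listed starts is given. The *Hmgcs1* window ends at base 119690350, while the gene starts at 119690379 in the GENCODE annotation. The bases just after that window were not found in a GENCODE transcript of *Hmgcs1*, so its start is uncertain. Capitals mark CCAAT on either strand and, in *Hmgcs1* alone, the 9 letters of the sterol response motif TCACNCCAC.
Hmgcs1 (chr13:119690101-119690350, plus strand): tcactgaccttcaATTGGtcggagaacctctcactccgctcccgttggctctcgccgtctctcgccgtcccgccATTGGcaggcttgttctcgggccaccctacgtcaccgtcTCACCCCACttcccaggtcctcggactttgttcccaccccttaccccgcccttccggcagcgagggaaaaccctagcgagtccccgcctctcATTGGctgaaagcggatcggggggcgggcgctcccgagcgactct
Mvd (chr8:122443423-122443672, minus strand): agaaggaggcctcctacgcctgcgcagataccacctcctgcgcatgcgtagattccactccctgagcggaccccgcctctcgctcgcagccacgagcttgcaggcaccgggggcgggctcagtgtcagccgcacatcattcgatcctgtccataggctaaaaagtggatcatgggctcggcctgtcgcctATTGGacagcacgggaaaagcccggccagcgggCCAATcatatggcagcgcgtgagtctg
Ebp (chrX:8193513-8193762, minus strand): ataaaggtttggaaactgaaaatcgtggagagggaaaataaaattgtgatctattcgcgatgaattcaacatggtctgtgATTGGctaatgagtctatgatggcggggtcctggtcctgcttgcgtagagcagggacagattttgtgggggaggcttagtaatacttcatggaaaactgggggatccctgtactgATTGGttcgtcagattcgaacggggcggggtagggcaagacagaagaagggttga
Srebf1 (chr11:60222582-60222831, minus strand): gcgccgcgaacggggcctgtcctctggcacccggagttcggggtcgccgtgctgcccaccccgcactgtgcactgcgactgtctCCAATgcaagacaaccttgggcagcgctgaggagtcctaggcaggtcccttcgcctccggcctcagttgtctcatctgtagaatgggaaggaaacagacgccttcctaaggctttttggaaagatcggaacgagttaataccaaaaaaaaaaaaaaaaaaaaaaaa

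The sterol response motif, searched on both strands, was found upstream of 1 of the 24 genes, *Hmgcs1*, against 1.22% of all genes with a promoter. Its shorter core CACNCCAC, which lies within it, was found upstream of *Acat2*, *Hmgcs1* and *Insig1*, against 6.05% of all genes. CCAAT was found upstream of 20 of the 24, against 37.5% of all genes, and was not found for *Acat2*, *Scap*, *Mbtps1* and *Mbtps2*. The GC box GGGCGG was found upstream of 21 of the 24, against 35.4% of all genes. For each motif a gene was counted if any of its listed starts had a match. *Srebf1* was thus among the 21, though the window printed for it holds no GC box. A match is a match of letters in a window and not a binding site.

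The 8 libraries held 904 to 2784 oligodendrocytes and 12015518 to 27848236 UMIs, where a UMI (unique molecular identifier) marks 1 captured RNA molecule. Median UMIs per cell ranged from 9377 to 13725.5. *Csf1r* stood at 5.16 to 11.4 CPM (UMIs of a gene for each 1000000 UMIs) in the 4 WT libraries and at 0 to 0.140 in the 4 KO libraries, in the direction of the labels. The 7 microglial markers together came to 51.3 to 119 CPM in WT libraries and 15.1 to 21.4 in KO libraries, and the 6 oligodendrocyte markers to 62645 to 72784 and 65419 to 72005. The authors sorted the cells into 4 clusters. Oligo1 held 10.8% to 30.9% of the cells of a KO library, 6 cells in 1 WT library and none in the other 3. Of all cells, 42 carried a barcode that another library also held. Across the 9257 genes tested in all cells, the split between pairs of mice was wider than that between genotypes. Both mice 4 and 6 lay above both mice 1 and 3 for 39.5% of genes and below them for 28.5%, against 11.9% above and 8.0% below for both KO over both WT mice. Mice 4 and 6 shared an age and a pair of batches, which cannot be told apart.

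The levels of the 29 genes, in CPM, spanned a wide range that followed no simple order along the pathway. Counting at the 3′ end does not scale with the length of a transcript, so the levels were set side by side without a length correction. The share of molecules captured can still differ between genes and was not measured. *Hmgcs1*, whose product makes the HMG-CoA that is reduced to mevalonate, was highest in every library, at 345 in the hippocampus of WT mouse 1, 589 in that of WT mouse 4, 509 and 580 in that of KO mice 3 and 6, 390 and 452 in the cortex of WT mice 1 and 4, and 415 and 509 in that of KO mice 3 and 6. *Hmgcs1* made up 21.5% of the summed level of the 21 synthesis genes on average (19.4% to 24.3%). *Msmo1*, the sterol C4-methyl oxidase, had a mean of 234 ± 32.1 (SD, n = 8 libraries), *Fdps*, which makes farnesyl diphosphate, 211 ± 32.0, *Cyp51*, which removes the 14-methyl group of lanosterol, 166 ± 23.3, *Idi1*, the isopentenyl diphosphate isomerase, 160 ± 27.4, and *Sc5d*, a sterol desaturase, 157 ± 9.55. With *Hmgcs1*, these genes carried 63.9% of the sum. *Fdps* and *Cyp51* were apart by more than either SD, whereas *Idi1* and *Sc5d* differed from *Cyp51* by less than its SD.

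The remaining synthesis genes were lower. *Ebp*, a sterol isomerase, stood at 121 ± 8.79 and *Fdft1*, squalene synthase, at 101 ± 10.7 (SD, n = 8). *Sqle*, squalene epoxidase, ranged from 51.5 in the hippocampus of WT mouse 1 to 106 in the cortex of KO mouse 6. Of the 2 genes that can reduce the sterol C14 double bond, *Lbr*, which also anchors chromatin at the nuclear envelope, had 52.7 ± 5.53, and *Tm7sf2* 4.37 ± 0.572 CPM with a UMI in 3.33% to 6.49% of cells. *Tm7sf2* was the lowest member in all 8 libraries and overlaps *Vps51* on the same strand (GENCODE vM21), so its few counts are uncertain. *Fdps*, *Lbr*, *Srebf1*, *Srebf2* and *Mbtps2* also overlap an annotated gene on their strand. *Acat1* and *Acat2*, placed first in the list, encode acetyl-CoA thiolases and not the sterol acyltransferase of the same former name. They stood at 61.3 ± 4.97 and 31.5 ± 5.51, and the part of each in cholesterol synthesis was not measured. *Acat2* has a near-identical neighbour, *Acat3*, which makes its count uncertain. Among the control genes, *Insig1* was highest at 136 ± 13.5, then *Srebf2* at 107 ± 12.2 and *Srebf1*, which encodes the related SREBP1, at 66.4 ± 5.85. *Mbtps2* was lowest at 14.1 ± 2.04. *Stard4*, a carrier that moves cholesterol between membranes, had 23 ± 7.14.

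**Figure D1:**
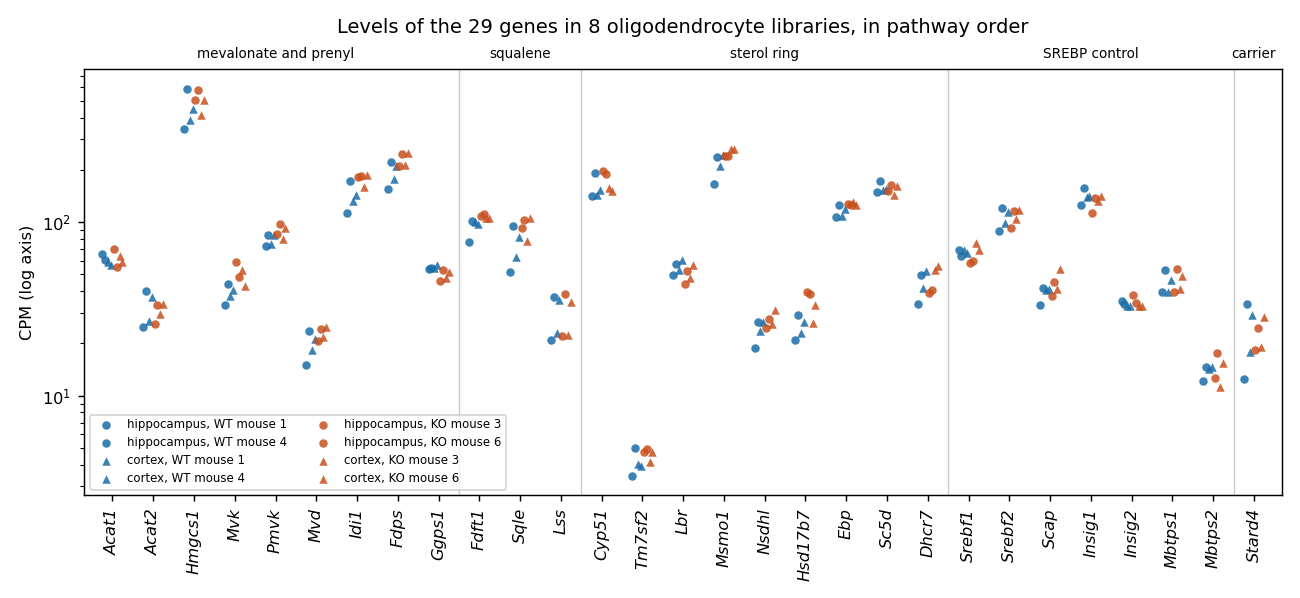
Level of each of the 29 genes in CPM (log axis) in pathway order, 1 point per library, with WT in blue, KO in orange, hippocampus as circles and cortex as triangles. *Hmgcs1* lies above all other genes in every library and *Tm7sf2* below all others.

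The synthesis genes differed most between the clusters. Their summed level was highest in Oligo2 in all 8 libraries, at 2601 to 3591 CPM, and lowest in Oligo3, at 1496 to 2080, with no overlap between those clusters. Within a library, Oligo2 stood 1.58 to 1.77 times above Oligo3 (median 1.72, n = 8). Oligo4 lay between them, at 1941 to 2472. In the 4 KO libraries Oligo1 came to 2264 to 2855, 1.29 to 1.59 times the Oligo3 level and 0.803 to 0.902 times the Oligo2 level of the same library. The 7 control genes did not follow: their sum in Oligo2 was 0.940 to 1.07 times that in Oligo3. The authors made the clusters from the expression of the same cells, so all differences between clusters are descriptions and carry no test.

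**Figure D2:**
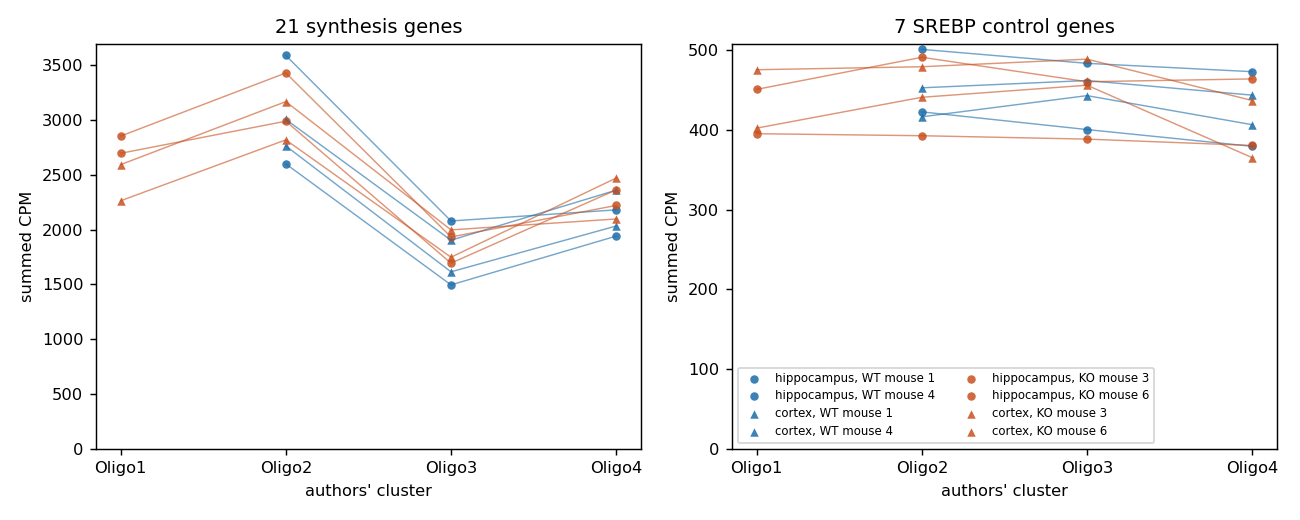
Summed CPM of the 21 synthesis genes (left) and the 7 control genes (right) in each of the authors' clusters, 1 line per library, WT in blue and KO in orange, with clusters under 30 cells left out. The synthesis sum peaks in Oligo2 and is lowest in Oligo3 in all 8 libraries, while the control sum stays between 365 and 501.

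Of the 21 synthesis genes, 18 were higher in Oligo2 than in Oligo3 in all 8 libraries. Of all 29 members, 21 were higher in Oligo2 than in Oligo3 in all 8 libraries, against 16.1% of the 9259 genes compared, and 1, *Srebf1*, was lower in all 8, against 9.62%. The median difference in mean log2 value (the deposited log2 of the scaled UMI count plus 1, averaged over cells) was 0.10 over the members and 0.0035 over all genes. *Hmgcs1* had the largest difference in mean log2 value, 0.84: it stood at 605 to 978 CPM in Oligo2 and 265 to 459 in Oligo3, 1.94 to 2.42 times higher within a library. *Idi1* was 1.92 to 2.26 times higher, with 204 to 298 in Oligo2 and 91.6 to 147 in Oligo3, and *Sqle* 1.93 to 2.45 times higher, with 92.2 to 172 against 41.1 to 73.1. As a ratio of CPM *Sqle* had the higher median of the pair, 2.24 against 2.17 for *Hmgcs1*. *Msmo1* was 1.45 to 1.99 times higher. For each of these genes every Oligo2 value lay above every Oligo3 value.

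The ranges of the arms of the pathway overlapped in part. In Oligo2 the mevalonate and prenyl genes together stood 1.67 to 1.90 times above Oligo3, the squalene genes 1.70 to 1.96 times and the sterol ring genes 1.40 to 1.62 times, the last below both other ranges. The 3 synthesis genes outside the pattern were *Ggps1*, which diverts isoprene units to geranylgeranyl groups, with a mean log2 difference of -0.0029 (SD 0.027, n = 8), *Lbr* with -0.020 (SD 0.027) and *Tm7sf2* with 0.0092 (SD 0.012). Of the control genes, *Srebf2* itself was higher in Oligo2 in all 8 libraries, by 1.01 to 1.27 times, and so was *Scap*. *Insig1*, itself a known SREBP2 target, was higher in 2 of 8 and had 0.771 to 1.10 times the Oligo3 level. *Srebf1* had 0.720 to 0.914 times the Oligo3 level. *Insig2*, *Mbtps1* and *Mbtps2* had mean log2 differences between -0.0082 and 0.0093, with both signs among libraries. *Stard4* was higher in all 8.

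Oligo2 also stood above Oligo4, though for fewer members. In all 8 libraries 12 of 29 were higher, against 13% of genes, and 0 were lower, against 11.6%. *Idi1* had the largest mean log2 difference from Oligo4, 0.49, with *Msmo1* at 0.37 and *Hmgcs1* at 0.36. *Cyp51*, which differed from Oligo3 by 0.37, differed from Oligo4 by 0.079 and was higher in 6 of 8.

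Depth and other cell markers differed between the clusters as well. When each cell was thinned to 5000 UMIs, the median cell held 12 to 17 UMIs of the 21 synthesis genes in Oligo2 and 7 to 9 in Oligo3 across the 8 libraries, and 9 to 12 in Oligo1 of KO libraries. Without thinning the medians were 24 to 44, 13 to 22 and 23 to 31. The 7 markers of newly formed oligodendrocytes together came to 693 to 763 CPM in Oligo2 and 337 to 409 in Oligo3, all 7 detected in both. Of the 5 that passed the detection limit, *Enpp6* alone was higher in Oligo2, with a mean log2 difference of 1.64, *Bcas1* was lower in all 8 libraries and the median was -0.016. Of the 6 oligodendrocyte markers, 5 were higher in Oligo2 in all 8 libraries, with a median of 0.11, close to that of the members. The 4 erythrocyte markers ranged from 14.7 to 2704 in Oligo2 and from 32.2 to 704 in Oligo3, and the 6 astrocyte markers from 194 to 283 and from 231 to 308. The part of these markers in the difference was not tested.

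Oligo1, the cluster found in the KO mice, was compared with the other cells of the same KO library. Of the 29 members, 11 were higher in Oligo1 than in Oligo2 to Oligo4 together in all 4 libraries, against 19.6% of the 9321 genes compared, and 4 were lower in all 4, against 15.8%. The median log2 difference was 0.030 over the members and 0.0025 over all genes. The higher members were *Hmgcs1*, *Mvk*, *Mvd*, *Idi1*, *Fdft1*, *Sqle*, *Cyp51*, *Nsdhl*, *Hsd17b7*, *Insig2* and *Mbtps1*, and the lower members *Ggps1*, *Lbr*, *Srebf1* and *Insig1*. With each of Oligo2 to Oligo4 given equal weight, 5 members were higher in all 4 libraries, against 16.8% of genes, and 4 lower, against 16.4%, so the count depends on the mix of cells compared and the share of members higher is then near that of all genes. With mouse 3 left out, 15 were higher in both remaining libraries, against 33.8% of genes, and 5 lower, against 29.3%. With mouse 6 left out, 15 were higher, against 36.2%, and 5 lower, against 29.2%.

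The 6 largest differences in mean log2 value in Oligo1 were those of *Hmgcs1*, *Sqle*, *Fdps*, *Cyp51*, *Hsd17b7* and *Fdft1*. *Hmgcs1* was 0.36 and 0.32 higher on the log2 scale in the hippocampus of KO mice 3 and 6, and 0.0083 and 0.11 higher in their cortex. *Sqle* was 0.26 and 0.26 higher in the hippocampus and 0.058 and 0.18 in the cortex. *Fdps* was higher by 0.24 and 0.16 in the hippocampus and by 0.28 in the cortex of mouse 6, and was -0.035 in the cortex of mouse 3. *Cyp51* had differences of 0.23, 0.13, 0.091 and 0.16 in the same order of libraries (hippocampus of mice 3 and 6, cortex of mice 3 and 6). *Fdft1*, at 0.12 to 0.18, and *Hsd17b7*, a sterol ketoreductase, at 0.11 to 0.17, varied least. *Srebf2* had 0.053, 0.044, -0.031 and 0.092. *Insig1* had -0.061, -0.13, -0.16 and -0.076, below 0 in all 4 libraries.

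Which cells Oligo1 was set against decided the direction for most of these genes. Against Oligo3, 17 of 29 members were higher in all 4 KO libraries, against 22.4% of genes, and 4 lower, against 15.2%. Against Oligo2, 2 were higher, against 18.4% of genes, and 12 lower, against 19.3%. Against Oligo4, 5 were higher, against 15.9% of genes, and 2 lower, against 16.7%. *Hmgcs1* had 1.44 to 1.96 times the Oligo3 level and 0.733 to 0.811 times the Oligo2 level, and *Idi1* 1.24 to 1.71 and 0.648 to 0.858 times. Ranked by the median ratio of CPM to Oligo3, the order of genes differed from that by log2 difference. *Hsd17b7* had 2.13, *Sqle* 2.02, *Mvk* 1.75 and *Hmgcs1* 1.62. *Mvd*, *Idi1* and *Nsdhl* had 1.59, 1.54 and 1.53, above *Fdps* at 1.47 and *Cyp51* and *Fdft1* at 1.42. *Hmgcs1*, *Idi1*, *Sqle*, *Cyp51*, *Msmo1* and *Srebf2* each had the order Oligo2, Oligo1, Oligo3 in all 4 KO libraries. *Hsd17b7* and *Mvk* departed from that order, each with its highest mean log2 value in Oligo1 in 3 of 4 KO libraries. *Hsd17b7* had 54.2, 61.1, 38.1 and 52.4 CPM in Oligo1, 40.7, 46.2, 28.2 and 40.0 in Oligo2 and 24.8, 24, 21 and 25.4 in Oligo3 of the same libraries. Its Oligo1 level was thus 1.31 to 1.35 times that in Oligo2, but 0.945 to 1.67 times that in Oligo4. For *Mvk* the Oligo1 level was 0.883 to 1.15 times that in Oligo2. *Insig1*, *Ggps1* and *Lbr* were lowest in Oligo1 among the 4 clusters in 3 of 4 KO libraries. *Srebf1* had 0.713 to 0.796 times its Oligo3 level.

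**Figure D3:**
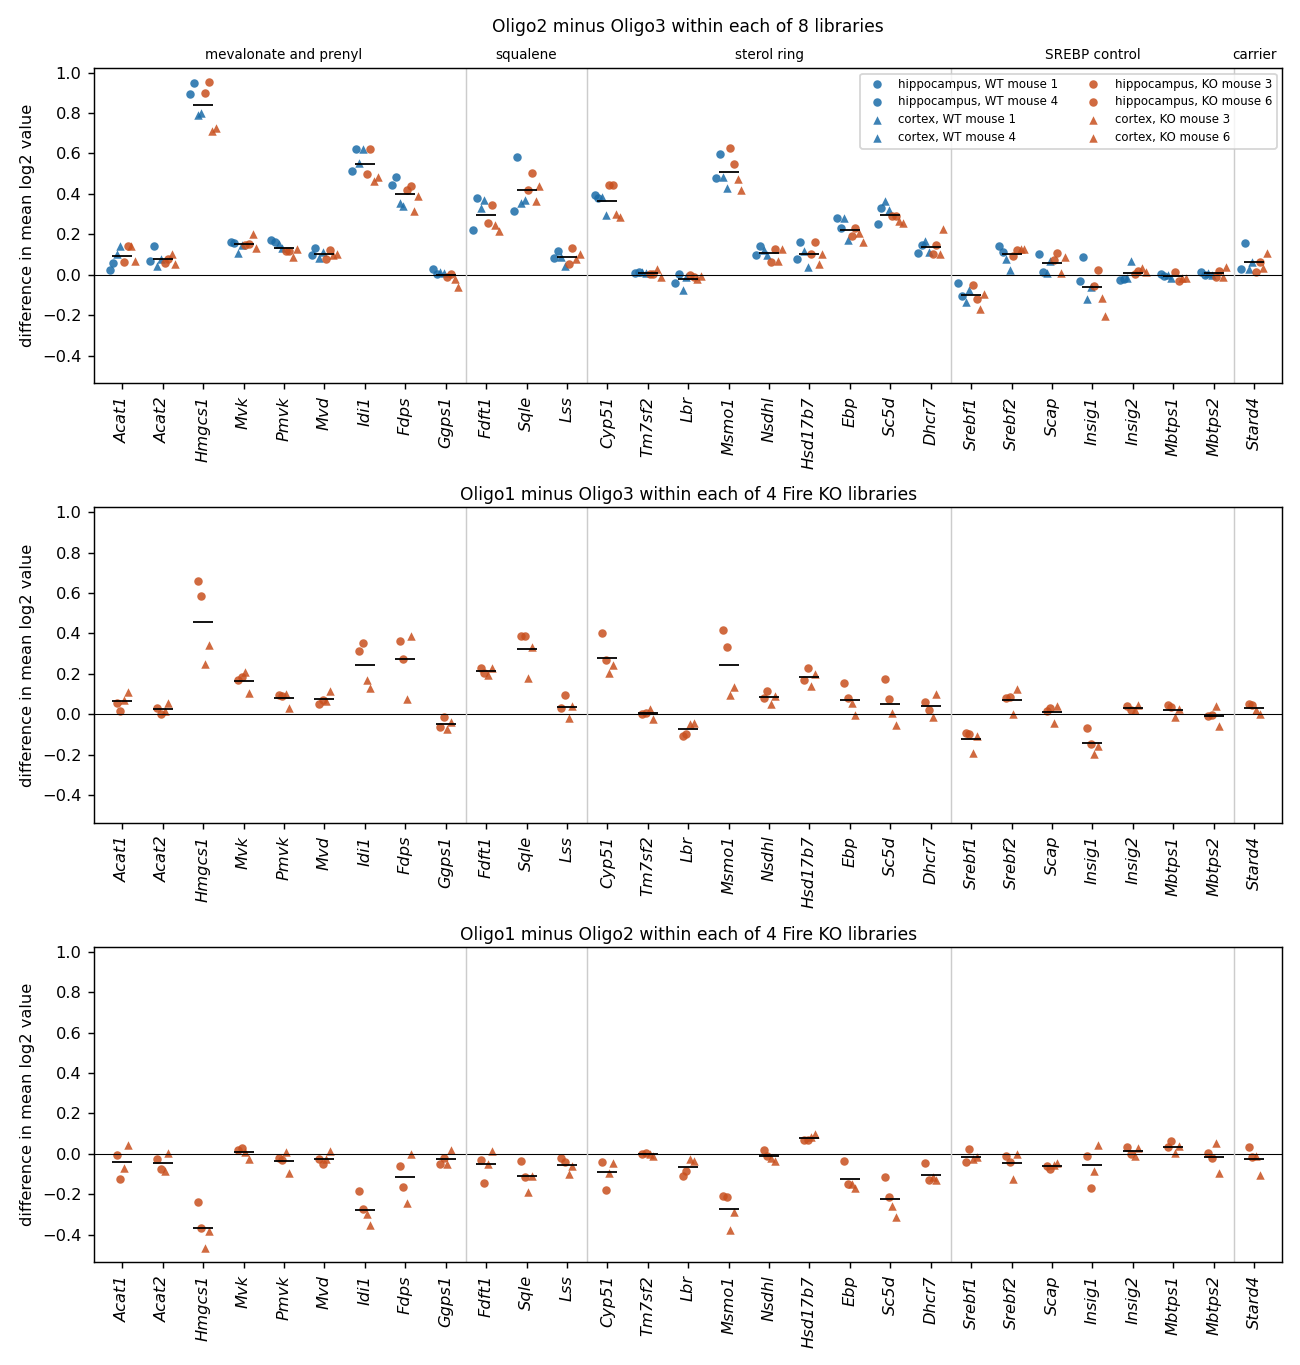
Difference in mean log2 value for each of the 29 genes in pathway order, for Oligo2 minus Oligo3 (top, 8 libraries), Oligo1 minus Oligo3 (middle, 4 KO libraries) and Oligo1 minus Oligo2 (bottom, 4 KO libraries). Points are libraries (hippocampus as circles, cortex as triangles) and bars their means. *Hmgcs1* has the mean of largest size, whatever its sign, in each panel, at 0.84, 0.46 and -0.36 from top to bottom.

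The 6 astrocyte markers were lower in Oligo1 (122 to 205 CPM) than in Oligo3 (231 to 308) of KO libraries, and the summed markers of newly formed oligodendrocytes came to 377 to 486 in Oligo1. Of the 5 of these that passed the limit, 2 were lower in Oligo1 than in Oligo2 in all 4 KO libraries, *Enpp6* by a mean log2 difference of -1.08 and *Bcas1* by -0.057, *Itpr2* was higher in all 4, and *Tcf7l2* and *Gpr17* had both signs. The part of these markers in the Oligo1 differences was not tested. The share of mitochondrial UMIs was 4.28% over Oligo1 cells, 4.69% over Oligo2, 5.61% over Oligo3 and 4.74% over Oligo4.

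Whether these genes differed with genotype was tested between the 2 WT and 2 KO mice. None of the 28 members that passed the detection limit, and none of the 9257 genes tested (0%), passed an adjusted p of 0.05 in limma over all oligodendrocytes. These p-values rest on the spread between 2 mice per genotype. At an unadjusted p under 0.05 there were 209 genes and 0 members, and edgeR on UMI sums called 8 genes and 0 members. With mice of the same age and batches as a block, limma again called 0 genes, with 970 genes and 8 members at an unadjusted p under 0.05 and 1 residual degree of freedom before pooling over genes. The 8 were *Pmvk*, *Idi1*, *Fdps*, *Sqle*, *Hsd17b7* and *Scap*, with positive differences, and *Lbr* and *Insig1*, with negative ones; the lowest adjusted p was 0.37, for *Pmvk* (0.064, SE 0.0077). *Tm7sf2* did not pass the limit of a UMI in 5% of cells. The median log2 difference was 0.022 over the members and 0.0013 over all genes. The members' median was 0.00024 without WT mouse 1, with 15 of 29 positive, and 0.057 without WT mouse 4, with 26 of 28. The microglial markers given above and the share of Oligo1 cells moved with genotype, and the part of the microglial markers in these differences was not tested.

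The summed level of the synthesis genes in KO mice was 2323 ± 142 CPM and in WT mice 2057 ± 334 (SD, n = 2 mice each, mean of both tissues). The lowest library was the hippocampus of WT mouse 1, at 1721, while that of WT mouse 4, at 2422, lay above 3 of the 4 KO libraries, so the genotypes overlapped. *Idi1* had 123 and 158 CPM in WT mice 1 and 4 and 171 and 186 in KO mice 3 and 6, without overlap, with a log2 difference of 0.17 (SE 0.074, 95% interval -0.053 to 0.40; limma adjusted p = 1.00). The *Idi1* difference was 0.082 without WT mouse 1 and 0.26 without WT mouse 4. *Hmgcs1* had 367 and 520 in WT and 462 and 544 in KO mice, with a difference of 0.15 (SE 0.16, 95% interval -0.33 to 0.63), which was -0.035 without WT mouse 1. *Srebf2* had 93.9 and 118 in WT and 98.7 and 117 in KO mice, with a difference of 0.010 (SE 0.071, 95% interval -0.21 to 0.23). *Hsd17b7* had the lowest unadjusted p of the members, 0.068, with 22.0 and 27.9 in WT and 32.8 and 35.9 in KO mice. Over the 28 members, both KO mice lay above both WT mice for 6, against 11.9% of genes, and below them for 1, *Ggps1*, against 8.0%.

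Each batch held 1 KO and 1 WT library of 1 tissue, so the difference could be read within batches. It was positive in all 4 batches for 8 of 28 members, against 13.4% of genes, and negative in all 4 for 2, against 9.90%. The 8 were *Mvk*, *Pmvk*, *Idi1*, *Fdps*, *Fdft1*, *Sqle*, *Hsd17b7* and *Scap*, and the 2 were *Ggps1* and *Lbr*. *Idi1* differed by 0.31, 0.18, 0.0054 and 0.21 in batches 3 to 6, and *Hmgcs1* by 0.34, 0.15, -0.068 and 0.17. The batch that stood apart for both was batch 5, the hippocampus of mice 4 and 6, with the smallest or a negative difference for most synthesis genes.

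The clusters' shares differed between genotypes, so the genotypes were also compared within clusters. Within Oligo3, the summed synthesis level was 1844 ± 173 CPM in KO and 1774 ± 308 in WT mice, within Oligo2 3103 ± 279 and 2991 ± 435, and within Oligo4 2289 ± 182 and 2129 ± 200 (SD, n = 2 mice each). These differences were smaller than the spread between mice of 1 genotype. With Oligo1 cells left out and Oligo2 to Oligo4 pooled as they were, the *Hmgcs1* difference was 0.099 (SE 0.16) and the *Idi1* difference 0.15 (SE 0.074). With Oligo2 to Oligo4 also at equal weight in every library, the *Hmgcs1* difference was 0.00084 (SE 0.12) and the *Idi1* difference 0.10 (SE 0.076). Both settings were chosen after seeing the data. Within batches, 4 of 28 members were then positive in all 4, against 8.61% of genes, and 1 was negative in all 4, against 9.34%. The 4 were *Pmvk*, *Fdps*, *Hsd17b7* and *Scap*. *Pmvk*, phosphomevalonate kinase, then had 0.025, 0.086, 0.047 and 0.056 in batches 3 to 6.

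Within single clusters, limma called no member and no gene in Oligo2 (0% of 9292), Oligo3 (0% of 9135) or Oligo4 (0% of 9381). The genes at an unadjusted p under 0.05 numbered 139, 103 and 282, with 1, 0 and 1 members among them, and edgeR called 4, 3 and 25 genes and 0 members. *Ggps1* had a difference of -0.054 in Oligo2 (SE 0.015, unadjusted p = 0.029) and *Hsd17b7* 0.12 in Oligo4 (SE 0.029, unadjusted p = 0.017). Both had an adjusted p of 1.00.

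**Figure D4:**
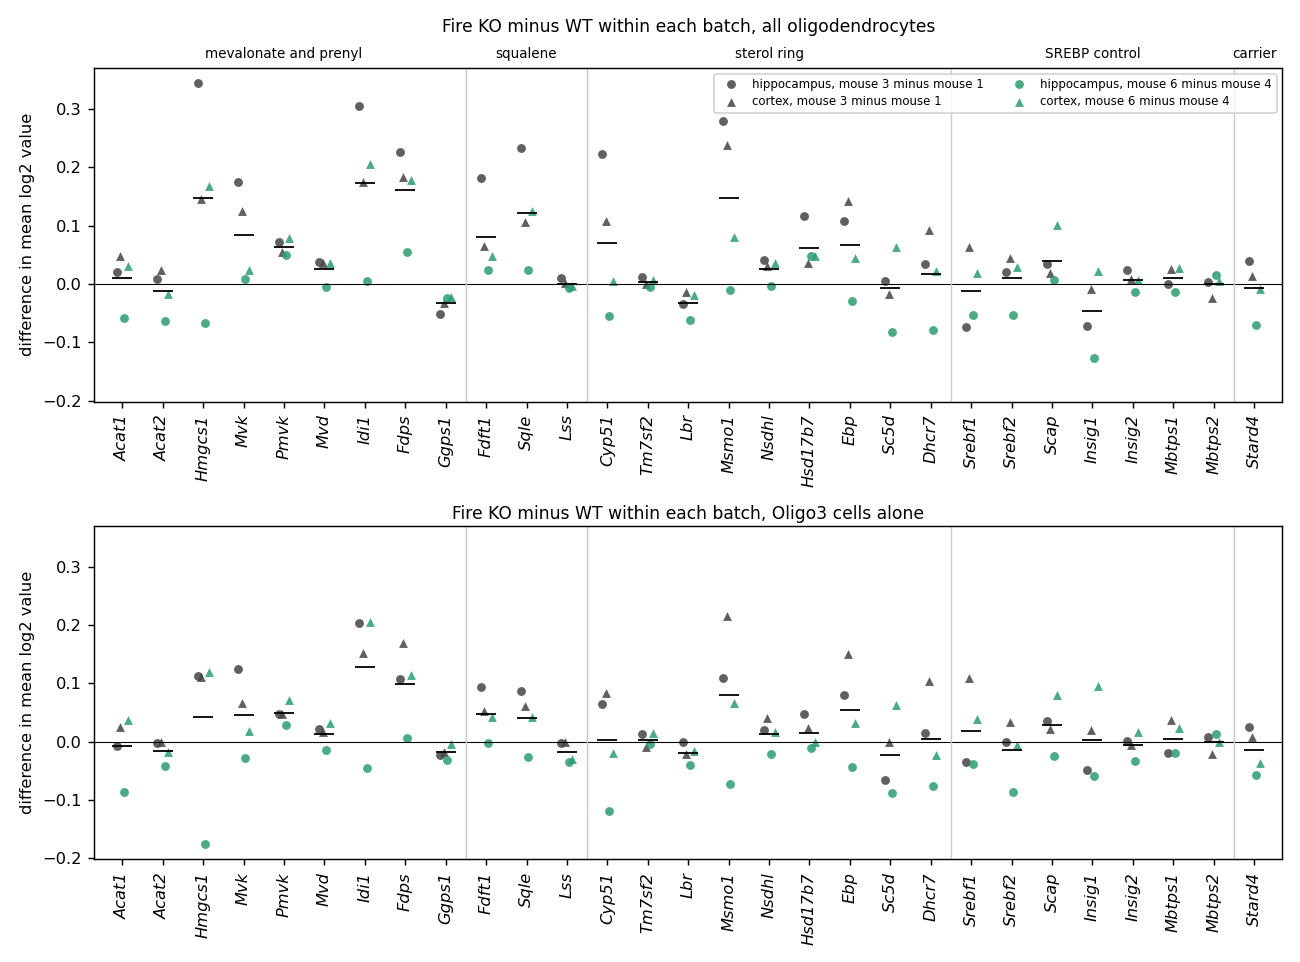
KO minus WT difference in mean log2 value within each of the 4 batches for the 29 genes, over all oligodendrocytes (top) and over Oligo3 cells (bottom), with bars for the mean of the 4 batches. *Idi1* averages 0.17 at the top and 0.13 at the bottom, *Hmgcs1* 0.15 and 0.042; the hippocampus of mice 6 and 4 (green circles) is the lowest point for most synthesis genes.

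Hippocampus and cortex came from the same mice, but the main test had genotype and not the mouse in its model. The hippocampus libraries were in batches 3 and 5 and the cortex libraries in batches 4 and 6. Tissue and batch therefore cannot be told apart, with or without the mouse in the model. limma called none of the 28 members and none of the 9257 genes (0%), with 490 genes and 1 member at an unadjusted p under 0.05, and edgeR called 0 genes. With the mouse as a block, since both libraries of a number came from 1 animal, the count of called genes was 0 too, with 1450 genes and 5 members at an unadjusted p under 0.05. In all 4 mice 0 of 28 members were higher in the hippocampus, against 6.78% of genes, and 5 were lower, against 18.6%. The share of members lower was thus near that of all genes. The 5 were *Ggps1*, *Lbr*, *Msmo1*, *Dhcr7* and *Srebf1*.

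The ring genes *Msmo1* and *Dhcr7*, the latter the reductase of 7-dehydrocholesterol, were with *Lbr* the members of lowest adjusted p between tissues under the block. *Msmo1* was lower in the hippocampus by log2 differences of -0.22, -0.018, -0.18 and -0.11 in mice 1, 4, 3 and 6, with a mean of -0.13 (SE 0.035 with the block, limma adjusted p = 0.23). *Dhcr7* had -0.069, -0.014, -0.13 and -0.12, with a mean of -0.082 (SE 0.021, adjusted p = 0.22). *Cyp51*, a few steps earlier, had the other sign in 3 of 4 mice, with -0.020, 0.19, 0.096 and 0.13 and a mean of 0.097 (SE 0.035, adjusted p = 0.29). *Hmgcs1* was -0.12 in WT mouse 1 and 0.28 in WT mouse 4, so the tissue difference went opposite ways in mice of 1 genotype. In KO mice 3 and 6, Oligo1 held 30.9% and 23.2% of hippocampus cells but 13.7% and 10.8% of cortex cells. Within Oligo3 alone, *Cyp51* had -0.0028, 0.16, -0.022 and 0.062 in mice 1, 4, 3 and 6, with a mean of 0.049. *Msmo1* and *Dhcr7* were below 0 there in all 4 mice, with means of -0.18 and -0.068. The part of the cluster mix in the tissue differences was not tested.

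Whether the tissue difference depended on genotype was tested as an interaction, on each mouse's hippocampus minus cortex difference. limma called none of the 28 members and none of the 9257 genes (0%), with 574 genes and 2 members at an unadjusted p under 0.05. The 2 were *Srebf1*, whose tissue difference was -0.015 in both WT mice and -0.15 and -0.085 in KO mice 3 and 6 (interaction -0.10, SE 0.027, adjusted p = 0.79), and *Dhcr7* (interaction -0.080, SE 0.023, adjusted p = 0.79).

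**Figure D5:**
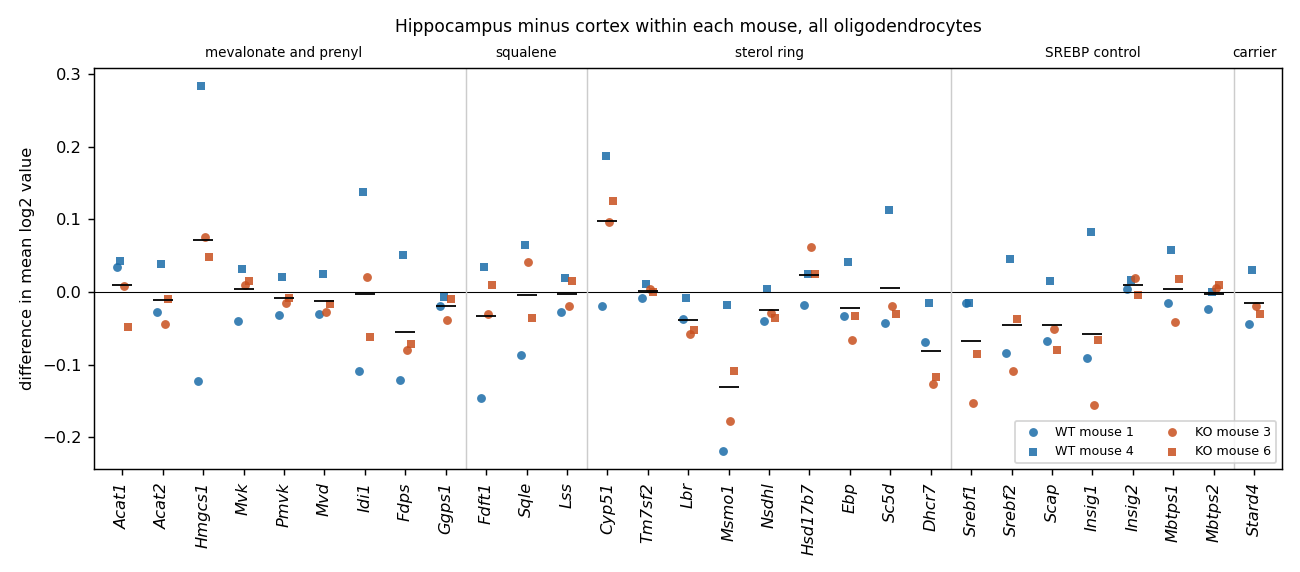
Hippocampus minus cortex difference in mean log2 value within each mouse for the 29 genes in pathway order, WT mice in blue and KO mice in orange, with bars for the mean of 4 mice. *Msmo1*, *Dhcr7*, *Srebf1*, *Lbr* and *Ggps1* are below 0 in all 4 mice, while *Hmgcs1* ranges from -0.12 to 0.28. Of all genes tested, 18.6% were below 0 in all 4 mice, a share near that of the members. Tissue and batch cannot be told apart in these differences.

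Mice of the same age and batches resembled each other more than mice of the same genotype for several members. *Lss*, lanosterol synthase, had 21.9 and 22.2 CPM in WT mouse 1 and KO mouse 3, and 36.2 and 36.7 in WT mouse 4 and KO mouse 6. *Stard4* had 15.2 and 18.8 in mice 1 and 3, and 31.5 and 26.5 in mice 4 and 6. In log2 values, mice 4 and 6 both lay above mice 1 and 3 for 17 of 28 members, against 39.5% of genes, and below them for 2, *Acat1* and *Srebf1*, against 28.5%. Age and batch cannot be told apart in these pairs.

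Genes around the pathway were read from 3 further lists. Of 12 genes that use prenyl groups, 11 passed the detection limit, and limma called 0 of them in each of the 6 comparisons. From Oligo3 to Oligo2, *Fnta* and *Fntb*, the subunits of protein farnesyltransferase, were higher in all 8 libraries, by 0.26 and 0.092 on the log2 scale, and the list's median was 0.013. In Oligo1 *Fnta* was lower than in the other KO cells in all 4 libraries, by -0.095 on average, and *Nus1*, a subunit of the dolichol synthase, was the highest at 0.046. Of 10 genes of sterol-regulated degradation and its partners in the endoplasmic reticulum, 7 passed, with 0 called. *Tmem97* was higher in Oligo2 in all 8 libraries (0.082) and *Erlin2*, a scaffold of that degradation, lower in all 8 (-0.088). Of 8 genes of sterol turnover and LXR, 7 were in the matrix and 3 passed, with 0 called. *Cyp27a1*, which makes 27-hydroxycholesterol, was higher in Oligo2 in all 8 libraries (0.17) and lower in Oligo1 than in the other KO cells in all 4 (-0.079).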

How the data were processed

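Brain cells were sorted by scatter to exclude doublets and debris and captured with 10x Genomics 3′ chemistry (v3.1). Per the submitters' processing notes, reads were counted with Cell Ranger 5.0.0 on the mouse build mm10. The authors kept cells that they identified as oligodendrocytes, with at least 5000 UMIs and at most 10% mitochondrial UMIs, clustered them after batch correction, and deposited 18833 genes in 12581 cells, fewer than their methods state. All deposited cells met both limits. Doublets were not called again. The authors divided each UMI count by a size factor of the cell, a score from scran that is deposited with the cell table beside counts of UMIs, and the deposited matrix holds the log2 of this quotient plus 1, with no batch correction. UMI counts were recovered from these values (all whole within 0.001). Every per-sample column was used.

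Cell values were averaged per library, and libraries per mouse. limma 3.58.1 in R 4.3.3 tested genotype on mouse means (2 against 2), tissue on library means with genotype in the model, and their interaction on each mouse's tissue difference, over genes detected in 5% of cells or more, with Benjamini-Hochberg adjustment over all genes tested and a threshold of 0.05. An exact permutation of 2 against 2 mice cannot give a p under 0.333. CPM were computed from summed UMIs. Cells of a library are not replicates. Mouse numbers pair the libraries, since each animal gave both tissues. The tissues' deviations from the genotype mean correlated at 0.84 in WT and 0.85 in KO mice over 9257 genes. The scripts were tested on simulated data. Gene overlaps came from GENCODE vM21 (GRCm38) and promoters from RefSeq. Settings varied were the scale (0.1 added to the averaged normalized count before taking log2), a detection limit of 10% or none, edgeR 4.0.16, blocks for mouse or age, single tissues or clusters, and each mouse left out.

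The members and lists were chosen with earlier results of these data known. The genes named are all 29 members; for Oligo1 the 6 largest differences with *Srebf2*, *Insig1*, *Hmgcs1* and *Sqle* are given in full, and of other lists the highest and lowest genes. *Fntb*, *Tmem97*, *Erlin2* and single cell type markers were named after their values were seen.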

Additional observations from a re-analysis of the deposited data

How the results depend on the processing

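No member passed the threshold under any alternative of the genotype, tissue or interaction tests. The count of genes called between genotypes over all oligodendrocytes, 0 with limma, was 2 on the scale with 0.1 added, 1 without a detection limit, 8 with edgeR under TMM and 8 under median-of-ratios factors. With 8 libraries and the mouse as a random replicate block it was 1. Within Oligo2 it was 2 on the scale with 0.1 added and 4 with edgeR, within Oligo3 1, 1 without a detection limit and 3 with edgeR, and within Oligo4 12 and 25. Leaving out each mouse in turn, where the lone mouse is assumed to vary like the other genotype, gave 0 in all 6 comparisons. The mouse as a replicate block gave 0 genes between tissues and changed no call.

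Genotype differences over all oligodendrocytes that changed sign were small. Without mouse 1, *Hmgcs1* became -0.035 and *Srebf2* -0.064, and without mouse 6 *Srebf2* became -0.041. *Insig1* became 0.0064 without mouse 4 and 0.00056 without mouse 3, and 0.0065 in the cortex alone. *Srebf2* became -0.016 in the hippocampus alone, -0.0090 at equal cluster weight and -0.011 without the hippocampus library of WT mouse 1; the last 2 settings were chosen after seeing the data. With each mouse left out in turn, the members' median ran from 0.00024 to 0.057, *Idi1* from 0.082 to 0.26, *Hmgcs1* from -0.035 to 0.33, *Srebf2* from -0.064 to 0.084 and *Insig1* from -0.10 to 0.0064. The causes were not tested.

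The 11 members higher in Oligo1 in every KO library became 17 when set against Oligo3, 2 against Oligo2 and 5 at equal cluster weight. The shares of all genes were 19.6% for the main setting and 22.4%, 18.4% and 16.8% for these 3. With either KO mouse left out the count was 15, where agreement was needed in 2 libraries rather than 4. The share of all genes then rose to 33.8% and 36.2%. Against Oligo2 the median difference of the members became -0.045, with *Hmgcs1* at -0.36, *Fdps* -0.12, *Fdft1* -0.052, *Sqle* -0.11, *Cyp51* -0.089 and *Srebf2* -0.045. The settings with Oligo2 alone and equal weights were chosen after seeing the data. With 2 mice per genotype, intervals were wide: that of *Hmgcs1* runs from -0.33 to 0.63.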
